A study of Mus musculus with 6 samples.

Results

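Creb1 and 7 genes that work with it were followed in 6 RNA-seq libraries: its close relatives Crem and Atf1, the CREB-regulated transcription coactivators Crtc1, Crtc2 and Crtc3, and the acetyltransferases Crebbp and Ep300. The 8 genes were chosen by name and are represented by 96 transcripts. All 8 were among the 32564 genes to which counts could be assigned and among the 15012 that passed the filter on low counts. The libraries came from cells sorted as quiescent neural stem cells, the slowly dividing stem cells of the subependymal zone beside the lateral ventricles. The donors were gfap:GFP transgenic mice, which express green fluorescent protein from the promoter of Gfap, a gene of astrocytes and of these stem cells, of the strain labelled C56BL/6J and 3 months of age. The ventricles had been injected 3 days earlier with artificial cerebrospinal fluid (aCSF, the vehicle, 3 libraries) or with an antagomir against miR-204 (3 libraries). An antagomir is a chemically stabilised antisense oligonucleotide that pairs with a microRNA and keeps it from its targets. The labels name no control oligonucleotide, so the injected oligonucleotide itself and the block of miR-204 cannot be told apart. They also do not say whether replicates were separate animals or pools, and the p-values therefore reflect the variation among these 6 libraries, part of which may be technical.

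Creb1 encodes CREB, a basic leucine zipper transcription factor that binds the cAMP response element (CRE) and is switched on when kinases such as protein kinase A phosphorylate its kinase-inducible domain. The phosphorylated factor binds the large acetyltransferases encoded by Crebbp (CBP) and Ep300 (p300), which acetylate histones and recruit the transcription machinery, while the Crtc proteins enter the nucleus when they lose phosphate and bind the leucine zipper of CREB. Crem and Atf1 encode relatives that bind the same element. In the adult subependymal zone CREB is best known from migrating neuroblasts, where its phosphorylated form supports survival and maturation. Creb1 is a reported target of miR-204, and the comparison asks whether its transcript and those of its partners differed between antagomir and vehicle. Whether miR-204 was blocked in the sorted cells was not measured here.

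The microRNA and the matches to it are shown because they are the reason Creb1 is of interest here. Mature miR-204-5p (chromosome 19, 22750610 to 22750631, plus strand, GRCm38.p6, RefSeq) is processed from an intron of Trpm3. It shares its seed, bases 2 to 8 in capitals, with miR-211-5p (chromosome 7, 64205831 to 64205852, plus strand). The pair differ at 1 base, U17A counted from the 5′ end, with the base of miR-211-5p written first.
miR-204-5p: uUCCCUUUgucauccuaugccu
miR-211-5p: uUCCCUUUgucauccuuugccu

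Matches to the seed were searched in the annotated 3′ UTRs (GENCODE M21, GRCm38) of the protein-coding transcripts that held at least 10% of a member's counts. A match was an 8mer (AAAGGGAA), a 7mer-m8 (AAAGGGA) or a 7mer-A1 (AAGGGAA), and the 7mers are counted only outside an 8mer. Of the 8 genes, 5 held at least 1 match: Creb1, Crem, Crtc1, Crtc2 and Crtc3. Both main transcripts of Creb1 shared 1 8mer on chromosome 1 (64599732 to 64599739, plus strand), and the longer, Creb1-202, held a 7mer-A1 further down (64603463 to 64603469). Crtc2 held an 8mer on chromosome 3 (90263831 to 90263838, plus strand) in a 3′ UTR of 425 bases. Crtc3 held a 7mer-m8 on chromosome 7 (80588952 to 80588958, minus strand) and Crtc1 a 7mer-A1 on chromosome 8 (70384568 to 70384574, minus strand). Each is printed in 30 bases of its transcript, with the match in capitals.
Creb1 8mer: catgttggccaAAAGGGAAtggaactgtca
Creb1-202 7mer-A1: agggtatgaacAAGGGAAtcctgaaatgca
Crtc2 8mer: taaaactgaggAAAGGGAAggggcttggcc
Crtc3 7mer-m8: aatggaggaggAAAGGGAggctacaggtgt
Crtc1 7mer-A1: gtgcggacttgAAGGGAAtagtgggaactt

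Crem held 1 8mer on chromosome 18 (3266720 to 3266727, minus strand) in both transcripts searched. No match lay in the searched 3′ UTRs of Atf1 (1285 bases), Crebbp (2720 bases) and Ep300 (1095 bases). Long 3′ UTRs often hold such a match by their length alone. Of 14147 protein-coding genes with a 3′ UTR in their most abundant transcript, 21.8% held at least 1. Among 3′ UTRs within 20% of the same length the share was 76.4% for Creb1-202 (7170 bases), 52.8% for Creb1-201 (3879 bases), 51.8% for Crtc1, 45.6% for Crtc3, 26.3% for Crem and 6.96% for Crtc2. A match describes the letters of the transcript and is not a measured site of binding.

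Each library held 14866453 to 19694409 estimated counts, and the members had 1603 (Crem) to 11405 (Crtc1) counts over the 6 libraries, well above the 3-count floor. Levels between libraries are in CPM, counts scaled to library size with TMM factors. Levels between genes are in TPM, which also divides by transcript length. Markers of the sorted cells were present in every library (Slc1a3 1593 to 2776 CPM, Gfap 179.9 to 556 CPM, Thbs4 71.0 to 175 CPM), beside ependymal transcripts (Foxj1 281 to 617 CPM), while the endothelial gene Cldn5 had 0 to 16 counts and the choroid plexus gene Ttr 0 to 21 counts. Other genes of those lists were present in every library, with the mural gene Pdgfrb at 78.2 to 135 CPM and the choroid plexus genes Clic6 and Folr1 at 37.6 to 79.4 and 14.2 to 37.0 CPM. Some libraries stood apart. Vehicle replicate 1 had a summed level of 12 microglia and macrophage genes of 2633 CPM, against 186 to 410 CPM in the other 5. The summed level of 10 neuroblast genes was 2344 CPM in antagomir replicate 1 and 1573 CPM in vehicle replicate 1, against 608 to 1089 CPM in the others. Of 12 microglia genes 12 had negative and of 10 cell cycle genes 10 had positive fold changes, 5 of each under an unadjusted p of 0.05 and 0 called by edgeR. Over all genes tested 4.1% lay under that p and 49.1% were positive. Groups did not overlap in CPM for 4 of the cell cycle genes and 0 of the microglia genes, beside 10.5% of all genes. All 9 oligodendrocyte genes were positive and all 8 ependymal genes negative, with 1 of each under that p. Of 7 oligodendrocyte precursor genes 6 were positive, with 1 under that p. Of 12 astrocyte and quiescent stem cell genes 9 were negative, with 2 under that p (Hopx and Slc1a2). For 3 of those 12 (Hopx, Slc1a2 and S1pr1) all antagomir libraries lay below all vehicle libraries, beside 5.45% of all genes. In these lists 0 genes were called by edgeR. The summed cell cycle level of vehicle replicate 1 (480 CPM) lay within the antagomir range (447 to 553 CPM), and vehicle replicates 2 and 3 were low (167 and 155 CPM). In such bulk samples fewer cells of a type and less RNA per cell cannot be told apart.

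Summed over coding and non-coding transcripts, the 3 coactivators of the Crtc family were the most abundant of the 8 per transcript length. Mean TPM over the 6 libraries was 40.0 ± 7.26 (SD, n = 6) for Crtc2, 37.7 ± 10.9 for Crtc1 and 36.0 ± 8.55 for Crtc3. The DNA-binding members came next, with 23.8 ± 2.36 TPM for Atf1, 21.5 ± 4.63 for Creb1 and 19.7 ± 4.07 for Crem. The acetyltransferase genes were lowest, with 15.2 ± 3.83 TPM for Crebbp and 14.0 ± 2.46 for Ep300. Crtc3, the third in the order, exceeded Atf1, the fourth, in 6 of 6 libraries, by a mean of 12.2 TPM against a larger SD of 8.55. Crem exceeded Crebbp in 5 of 6 libraries, by 4.48 TPM against 4.07. The other neighbours in the order differed by 1.22 to 2.29 TPM, less than the larger SD of each pair, so their order is not resolved. Among all genes tested the members lay between the percentiles 40.2 (Ep300) and 67.8 (Crtc2) of mean TPM, near the middle of the transcriptome of these cells. These gene sums include transcripts not annotated as protein-coding. Crtc2 and Crtc3 each had 1 protein-coding transcript. Crtc2-201 held on average 40.0 and 39.9% of its gene's TPM with vehicle and antagomir, and Crtc3-201 held 44.9 and 48.3%. The order of the members by coding transcripts alone was not computed.

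None of the 8 genes differed between antagomir and vehicle in the test. Over all 15012 genes the quasi-likelihood test of edgeR, with p-values adjusted by the method of Benjamini and Hochberg, called 0 genes (0%), with no adjusted p below 0.949. The unadjusted p of 616 genes (4.1%) lay under 0.05, with 327 (2.18%) higher and 289 (1.93%) lower after the antagomir, and 0 of the 8 members were among them. Groups that did not overlap in CPM, called apart below, were found for 10.5% of all genes (5.07% higher and 5.45% lower) and for 0 of the 8 members. Of the members 3 had positive log2 fold changes (Creb1, Crtc1 and Crtc2) and 5 negative ones, with a median of -0.16, beside -0.0062 over all genes tested, of which 49.1% were positive. Leaving out vehicle replicate 1 moved the median to 0.035, leaving out vehicle replicate 3 to 0.033 and leaving out antagomir replicate 3 to -0.038.

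**Figure D1:**
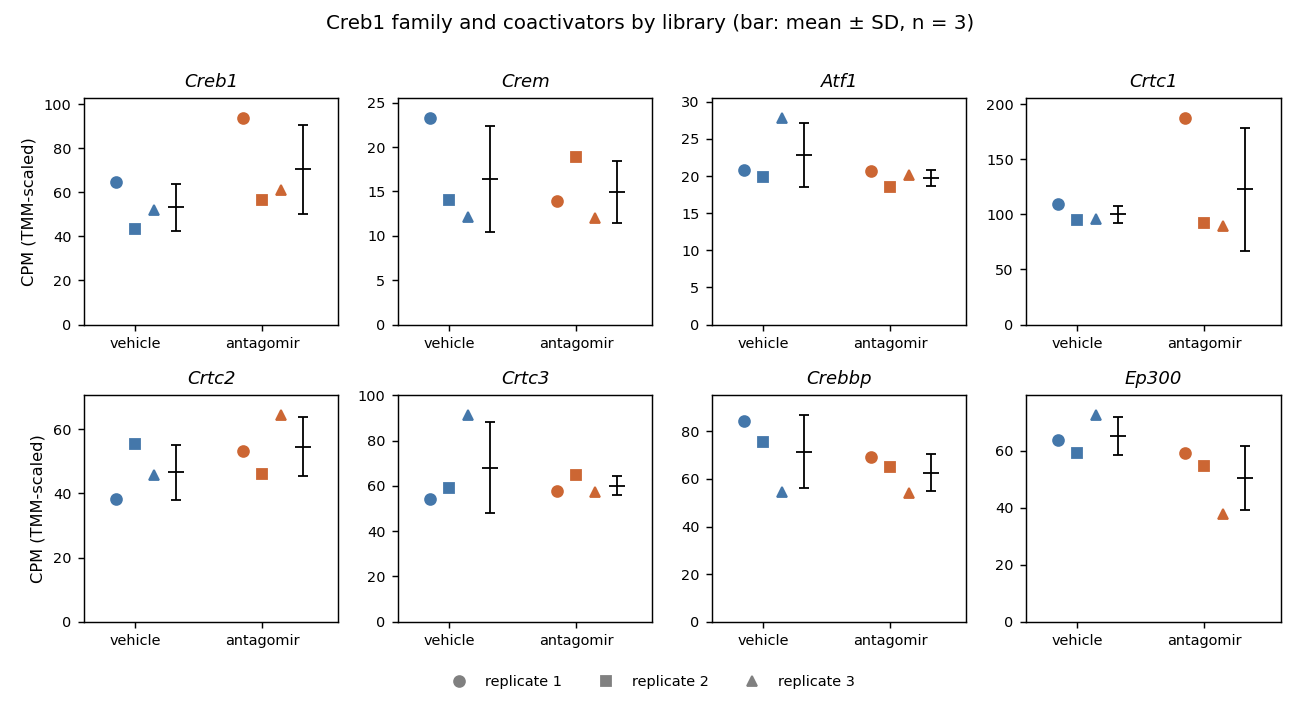
Level of each of the 8 genes in CPM (vertical axes, starting at 0) in 3 vehicle (blue) and 3 antagomir (orange) libraries, with the replicate given by the marker and the mean ± SD as a bar. The groups overlap in all 8 panels, and antagomir replicate 1 is the highest library for Creb1 (93.6 CPM) and Crtc1 (187 CPM).

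Among the DNA-binding members, Creb1 (ENSMUSG00000025958.14, chromosome 1, 64532645 to 64604548, plus strand) measured 64.5, 43.3 and 51.9 CPM in vehicle replicates 1, 2 and 3 and 93.6, 56.4 and 61.2 CPM in antagomir replicates 1, 2 and 3. Antagomir replicate 1 was the highest library, while vehicle replicate 1 lay above the other 2 antagomir libraries. The means were 53.2 ± 10.7 and 70.4 ± 20.2 CPM (SD, n = 3 each), a log2 fold change of 0.40 ± 0.24 (SE, edgeR adjusted p = 0.949, unadjusted p = 0.133) with a 95% interval of -0.15 to 0.96. The fold change was 0.14 without antagomir replicate 1 and 0.57 without vehicle replicate 1.

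The libraries with the most Creb1 were also those with the highest summed neuroblast and mature neuron levels. The 2 libraries with the most Creb1, antagomir replicate 1 and vehicle replicate 1, were also those with the highest summed neuroblast level and, of the single genes, the most Dcx, the neuroblast microtubule gene doublecortin (274 and 142 CPM, against 17.4 to 61.1 CPM in the other 4). All 10 neuroblast genes on the list had positive fold changes (0 called by edgeR at an adjusted p of 0.05, 0 under an unadjusted p of 0.05), from 0.00025 for Cd24a to 1.93 for Sp8. Of the 10, 9 were highest in those 2 libraries, and Cd24a was not (361.9 CPM in vehicle replicate 1 but 283 CPM in antagomir replicate 1). The summed level of 10 mature neuron genes was 1039 CPM in antagomir replicate 1 and 723 CPM in vehicle replicate 1, against 510 to 593 CPM in the other 4. Of the 10, 8 had positive fold changes with 0 called. Ppp1r1b made up much of that sum, at 567 and 399 CPM in those 2 libraries and 343 to 391 CPM in the other 4. Nefl, Syt1, Slc17a7 and Drd1 of the mature neuron list were not highest in those 2 libraries. The part of cell mixture in the Creb1 level was not tested.

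The 5 genes with the highest Pearson correlation with Creb1 in log2 CPM over the 6 libraries, out of 10550 compared, were Gpc1 (r = 0.996), Ddb1 (0.992), Dlgap4 (0.992), Cmip (0.992) and Dbndd1 (0.991). Gpc1, a heparan sulphate proteoglycan of the cell surface, measured 126, 82.3 and 99.2 CPM with vehicle and 180, 102 and 118 CPM with antagomir. The lowest correlations were those of Slc50a1 (-0.993), a sugar transporter, Haghl (-0.992) and Dab2 (-0.989), an endocytic adaptor. These values are a description over 6 libraries, in which every gene was measured in the same RNA and so with the same depth and cell mixture of each library. The coefficient with Creb1 was 0.857 for Crtc1, and between -0.35 and 0.099 for the other 6 members.

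**Figure D2:**
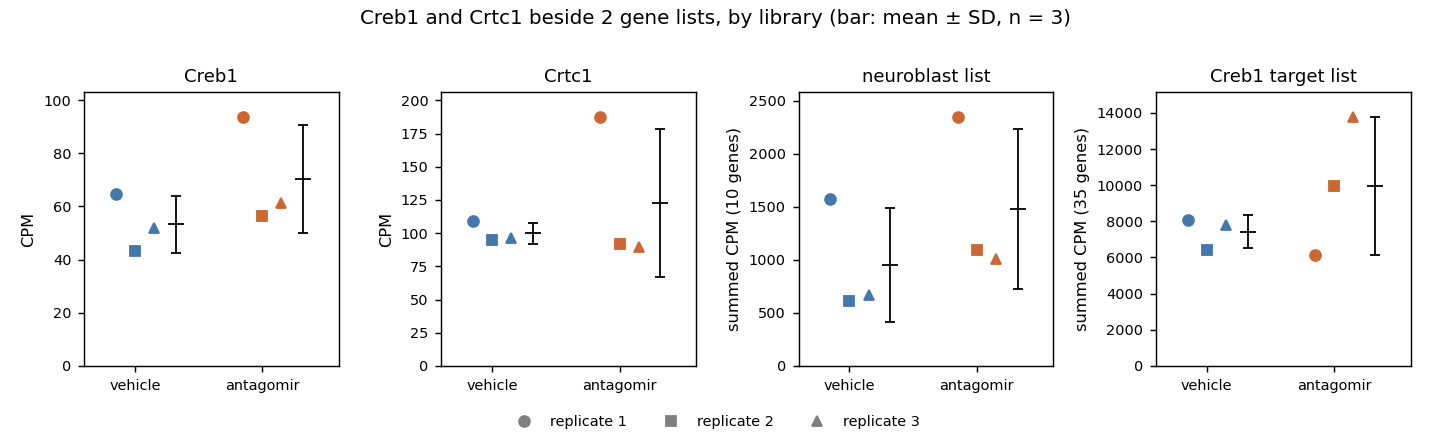
Creb1 and Crtc1 in CPM beside the summed CPM of 10 neuroblast genes and of 35 Creb1 target genes (vertical axes, starting at 0) in the 3 vehicle (blue) and 3 antagomir (orange) libraries, with mean ± SD as bars. Antagomir replicate 1 is highest for Creb1, Crtc1 and the neuroblast list (2344 CPM) and lowest for the target list (6129 CPM). Fos and Egr1 together made up most of the target sum in every library (2061 and 1712 CPM in antagomir replicate 1). The sum therefore does not stand for the 35 target genes, of which 18 had positive and 17 negative fold changes.

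Crem, whose transcripts encode both activators and repressors, was the least abundant member by count and had no consistent direction. It measured 23.2, 14.0 and 12.1 CPM in the vehicle libraries and 13.9, 18.9 and 12.02 CPM in the antagomir libraries. Vehicle replicate 1, the library with the high microglia level, was the highest and the others lay between 12.02 and 18.9 CPM. The log2 fold change of -0.14 ± 0.33 (95% interval -0.89 to 0.61) turned to 0.20 without vehicle replicate 1. It was 0.0049 without antagomir replicate 3 and 0.032 in TPM on the log2(TPM + 1) scale.

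Crem is known for an internal promoter that makes a short inducible repressor, ICER. Its 39 transcripts in the files fell into 6 clusters of annotated starts. The cluster farthest upstream (11 transcripts, starts at 3337063 to 3337748 on the minus strand of chromosome 18) held 56.5% of the gene's counts. The cluster farthest downstream (7 transcripts, starts at 3281078 to 3281769) held 17.6%, with 74, 17 and 43 counts in the vehicle libraries and 60, 43 and 46 in the antagomir libraries. Whether that cluster is the ICER promoter was not established here. Estimates for single Crem transcripts were unstable. Crem-203 was estimated at 72, 0 and 20 counts with vehicle and 30, 0 and 64 with antagomir. Some start clusters varied as much, such as the second from downstream with 3, 55 and 1 counts with vehicle and 4, 30 and 9 with antagomir.

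Atf1, the third DNA-binding member, measured 20.8, 19.8 and 27.8 CPM with vehicle and 20.6, 18.5 and 20.1 CPM with antagomir. Its 3 antagomir libraries lay close together and overlapped vehicle replicates 1 and 2, while vehicle replicate 3 was higher. The log2 fold change was -0.21 ± 0.22 (95% interval -0.72 to 0.30), and -0.031 without vehicle replicate 3.

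Of the Crtc coactivators, which carry cAMP and calcium signals to CREB, Crtc1 was the most abundant by count. It measured 109, 94.6 and 96.0 CPM with vehicle and 187, 92.0 and 89.3 CPM with antagomir. Antagomir replicate 1 alone stood high, and the other 2 antagomir libraries lay below all 3 vehicle libraries. The log2 fold change of 0.30 ± 0.28 (95% interval -0.36 to 0.95) accordingly turned to -0.14 without antagomir replicate 1.

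Crtc2, the member with the seed match in the shortest 3′ UTR, measured 38.3, 55.5 and 45.7 CPM with vehicle and 53.3, 45.9 and 64.3 CPM with antagomir. The groups were interleaved, with the highest library an antagomir one and the lowest a vehicle one. Its log2 fold change was 0.23 ± 0.21 (95% interval -0.24 to 0.70), and with each single library left out it stayed positive, between 0.11 and 0.38. In TPM the groups did not overlap, at 28.5, 39.8 and 36.3 with vehicle and 41.7, 43.7 and 49.997 with antagomir. The share of all genes without overlap in TPM was not computed, and in CPM it was 10.5%. The log2 fold change of Crtc2 on the log2(TPM + 1) scale was 0.37 (limma, unadjusted p = 0.0783, adjusted p = 0.893).

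Crtc3 measured 54.1, 59.0 and 91.1 CPM with vehicle and 57.8, 65.0 and 57.5 CPM with antagomir. Only vehicle replicate 3 stood apart. Without it the log2 fold change of -0.18 ± 0.22 (95% interval -0.68 to 0.32) turned to 0.098.

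**Figure D3:**
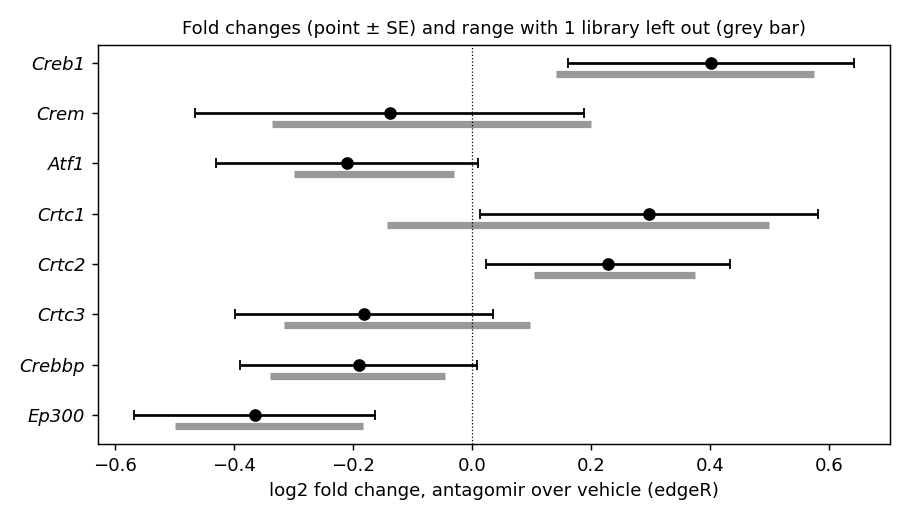
Log2 fold change of antagomir over vehicle (horizontal axis) for the 8 genes, as point ± SE from edgeR over 6 libraries, with a grey bar for the range when 1 library at a time was left out. The grey bars of Crem, Crtc1 and Crtc3 cross 0. Those of Creb1 (0.14 to 0.57), Atf1 (-0.30 to -0.031), Crtc2 (0.11 to 0.38), Crebbp (-0.34 to -0.045) and Ep300 (-0.50 to -0.18) do not.

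Both acetyltransferase genes had negative fold changes, as did Crem, Atf1 and Crtc3. Ep300 (ENSMUSG00000055024.12, chromosome 15, 81585351 to 81652077, plus strand) measured 63.7, 59.2 and 72.4 CPM with vehicle and 59.2, 54.6 and 37.8 CPM with antagomir. The groups met only where antagomir replicate 1 and vehicle replicate 2 both measured 59.2 CPM, and antagomir replicate 3 was the lowest of all. The log2 fold change was -0.37 ± 0.20 (95% interval -0.83 to 0.10, unadjusted p = 0.109, edgeR adjusted p = 0.949), the smallest p among the 8 genes. It was -0.18 without antagomir replicate 3, and -0.50 without antagomir replicate 1 (unadjusted p = 0.0481, edgeR adjusted p = 1.00). On the log2(TPM + 1) scale the fold change was -0.077.

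Crebbp, the paralogue of Ep300, measured 84.3, 75.3 and 54.6 CPM with vehicle and 69.0, 64.9 and 53.9 CPM with antagomir. Vehicle replicate 3 lay with antagomir replicate 3 at the bottom and the rest were spread above. The log2 fold change was -0.19 ± 0.20 (95% interval -0.65 to 0.27), and it reached -0.34 when vehicle replicate 3 was left out. Leaving out vehicle replicate 1 gave -0.045, and leaving out antagomir replicate 3 gave -0.081.

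Transcripts were compared as shares of their gene's estimated counts, and in a fit over 40212 transcripts in which edgeR called 0 (0%). At an unadjusted p of 0.05 there were 981 (2.44%), and 9.23% had groups apart. Of the 14 member transcripts that held at least 10% of their gene, 0 had an unadjusted p under 0.05 and 0 had groups apart. Most Creb1 counts fell to 2 forms, Creb1-201 and Creb1-202, which differ mainly in the length of their 3′ UTR (3879 and 7170 bases). Their total lengths of 5009 and 8364 bases leave a smaller difference outside it. The longer Creb1-202, which alone holds the additional 7mer-A1, took 45.0, 40.0 and 56.7% of the counts with vehicle and 57.6, 48.9 and 47.6% with antagomir. The shares overlapped, with means of 47.2 ± 8.57% and 51.4 ± 5.41% (exact permutation p = 0.5, two-sided, of a design that cannot go below 0.1).

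Crtc2 was split between coding and other transcripts. Transcripts not annotated as protein-coding took 43.3 to 56.8% of its counts in every library, against at most 9.34% for Crtc1 and 29.6% for Crtc3. The coding Crtc2-201 took 44.3, 56.7 and 43.2% with vehicle and 54.6, 48.8 and 48.8% with antagomir, and the shares overlapped. The non-coding Crtc2-205 took 31.1, 19.96 and 36.6% with vehicle and 17.2, 25.5 and 26.0% with antagomir.

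Crebbp-203 is a shorter annotated coding form of 3322 bases for which no complete 3′ UTR is annotated. It took 14.6, 20.7 and 9.48% of Crebbp counts with vehicle and 11.2, 4.75 and 3.18% with antagomir. Antagomir replicates 2 and 3 were the lowest libraries, and antagomir replicate 1 lay within the vehicle range. Its log2 fold change was -1.34 ± 0.70 (unadjusted p = 0.0983, edgeR adjusted p = 1.00), while the full-length Crebbp-201 had one of -0.025 ± 0.21.

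**Figure D4:**
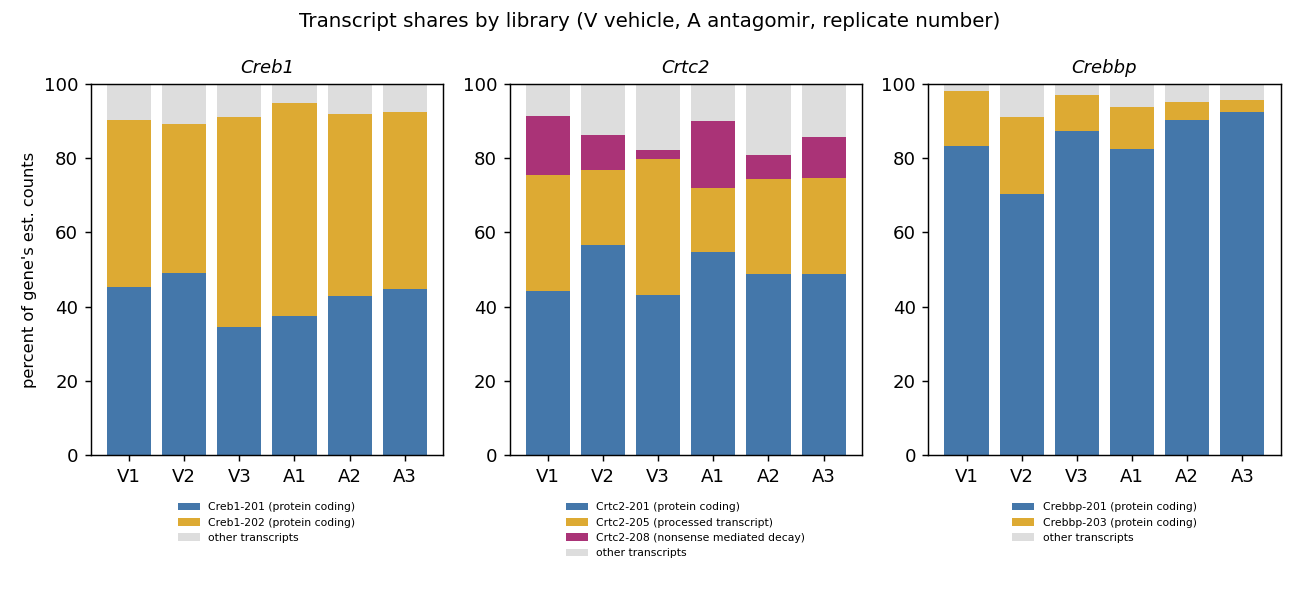
Percent of the estimated counts of Creb1, Crtc2 and Crebbp (vertical axis) given to each transcript holding at least 10% of its gene, in vehicle (V) and antagomir (A) replicates 1 to 3. Creb1-202 ranges from 40.0 to 57.6%, and Crebbp-203 is lowest in antagomir replicates 2 (4.75%) and 3 (3.18%).

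Upstream of CREB, none of the genes that make, remove or carry the cAMP signal passed the test. Of 33 listed genes of cAMP receptors, synthesis and breakdown, 30 were tested, 14 with positive fold changes (median -0.037), and 0 were called. The median was -0.10 without antagomir replicate 1, with 10 of 30 positive, and 0.00084 without vehicle replicate 1. Only Pde1b, a calcium-activated phosphodiesterase, had an unadjusted p under 0.05, with 90.4 ± 14.5 CPM after vehicle and 132 ± 36.1 CPM after antagomir. Vipr2, a receptor for the peptide VIP, had groups apart at 13.5, 14.4 and 15.2 CPM against 22.4, 16.1 and 23.3 CPM (log2 fold change 0.52 ± 0.24). The adrenergic receptor gene Adrb1 measured 20.6 ± 3.20 and 14.6 ± 2.98 CPM. The adenylate cyclase gene Adcy7 measured 25.0 CPM in vehicle replicate 1, where the summed microglia level was highest, and 1.47 to 2.98 CPM in the other 5 libraries.

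Of 9 genes of protein kinase A, the kinase that cAMP releases, 8 had positive fold changes (median 0.19) and 0 were called. The regulatory subunit genes Prkar2b and Prkar1a measured 26.2 ± 8.46 against 37.5 ± 6.48 CPM and 538 ± 74.0 against 647 ± 86.7 CPM. The inhibitor gene Pkig had groups apart at 89.7 to 106 CPM with vehicle and 108 to 114 CPM with antagomir. Another inhibitor gene, Pkia, was highest in the 2 libraries with the most neuroblast signal, at 87.8, 46.9 and 47.6 CPM with vehicle and 159, 64.2 and 46.5 CPM with antagomir. Without antagomir replicate 1, 5 of the 9 were positive and the median was 0.048.

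Of 18 other kinase genes that act on or towards CREB, 11 had positive fold changes (median 0.17) and 0 were called. Camk4, a calcium-activated kinase of CREB in neurons, measured 16.0, 11.4 and 15.8 CPM with vehicle and 34.6, 26.0 and 10.7 CPM with antagomir. Antagomir replicate 3 lay below all vehicle libraries there. Camk1 measured 59.4 ± 8.41 and 49.5 ± 3.74 CPM, Rps6ka2 65.9 ± 6.61 and 77.7 ± 8.34 CPM, and Camk2b 118 ± 29.2 and 165 ± 78.5 CPM. Without antagomir replicate 1 the median of the list was 0.016.

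The 5 phosphatase genes (median 0.075, 4 positive) and the 9 regulators of the Crtc proteins (median 0.046, 5 positive) held 0 called genes, and the median of the Crtc regulators turned to -0.075 when vehicle replicate 2 was left out and to -0.054 when vehicle replicate 1 was. Ppp1cc, a catalytic subunit of protein phosphatase 1, which removes the activating phosphate of CREB, measured 126 ± 24.5 and 151 ± 17.0 CPM. The salt-inducible kinases hold the Crtc proteins in the cytoplasm. Of their genes, Sik1 measured 20.4 ± 5.01 and 16.1 ± 4.28 CPM and Sik2 34.1 ± 12.01 and 27.5 ± 9.23 CPM. Ppp3r1, the regulatory subunit of calcineurin, which removes phosphate from the Crtc proteins, measured 115 ± 10.6 and 135 ± 37.1 CPM.

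Among related factors, 17 bZIP genes had a median of -0.011 (-0.087 to 0.13 with 1 library at a time left out), with 8 positive and 0 called. Atf3, a stress-induced factor, measured 325, 164 and 233 CPM with vehicle and 103, 435 and 719.8 CPM with antagomir. Both extremes were antagomir libraries. Crebl2 had groups apart, with 23.6, 23.4 and 26.3 CPM against 15.3, 16.7 and 23.2 CPM. Of 11 other lysine acetyltransferase genes 9 were positive (median 0.031, 0 called). The median was 0.14 without vehicle replicate 1, and 6 of the 11 were positive without antagomir replicate 2. Kat8, which acetylates histone H4, was the exception under an unadjusted p of 0.05, with 28.5, 30.8 and 23.3 CPM against 18.1, 20.3 and 19.96 CPM and groups apart.

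Known target genes of CREB showed no common direction. Of 35, all were tested, 18 were positive and 17 negative (median 0.0062), and 0 were called. The immediate early genes on the list, which cells switch on within minutes of a stimulus, differed among the antagomir libraries. Fos measured 2581, 1902 and 2661 CPM with vehicle and 2061, 3373 and 4619 CPM with antagomir, and Egr1 1719, 1570.3 and 1852 CPM against 1712, 2504 and 3585 CPM. Antagomir replicates 2 and 3 exceeded all vehicle libraries for both genes and antagomir replicate 1, the library with the most Creb1, did not. CREB activity was not measured, and the cause of these differences between libraries was not tested. Egr1 alone lay under an unadjusted p of 0.05 (log2 fold change 0.60 ± 0.25). Without antagomir replicate 1, 8 of the 35 did so in either direction, beside 519 of 15460 genes, with 0 called by edgeR.

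Nr4a1 measured 278, 92.6 and 145 CPM with vehicle and 80.1, 163 and 344 CPM with antagomir, and its groups overlapped. Dusp1, a phosphatase gene of the same early response, measured 673 ± 69.3 and 970 ± 412 CPM, Nfil3 30.9 ± 15.6 and 49.4 ± 16.5 CPM, and the clock gene Per1 25.7 ± 5.71 and 26.5 ± 10.01 CPM. Ppargc1a, a coactivator of mitochondrial genes, was the only gene on the list with groups apart, at 71.4, 76.1 and 81.8 CPM with vehicle and 66.3, 60.8 and 58.8 CPM with antagomir. The count of positive genes on this list depended on single libraries, with 24 of 35 without vehicle replicate 1 (median 0.33) and 12 of 35 without antagomir replicate 3 (median -0.15).

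Promoters of the list were searched for the CRE to show what it shares in sequence. RefSeq promoters (GRCm38.p6, 250 bases before to 50 after a start) were given for 27 of the 35 genes, 46 in all. The full element TGACGTCA, which reads the same on both strands, was in 4 of the 46 (8.70%), against 1.79% of 32851 promoters. The shorter TGACG, searched on both strands and contained in the full element, was in 27 (58.7%), against 20.8%. The list holds known CREB targets, so a higher share than in all promoters may follow from how it was chosen. Some genes, such as Egr2, entered with several overlapping promoters, which are not independent. Of the 6 members with a promoter in the table (Creb1, Atf1, Crtc1, Crtc3, Crebbp and Ep300), 0 held the full element and Atf1 held TGACG. The full elements are printed in 30 bases on the strand of the gene with the element in capitals. They lie at chr17:26508597-26508626 (Dusp1, minus strand), chr16:23890874-23890903 (Sst, minus strand), chr1:79440076-79440105 (Scg2, minus strand) and chr5:91139527-91139556 (Areg, plus strand).
Dusp1: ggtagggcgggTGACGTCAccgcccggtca
Sst: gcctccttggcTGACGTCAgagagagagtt
Scg2: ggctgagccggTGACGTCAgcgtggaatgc
Areg: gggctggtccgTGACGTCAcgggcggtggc

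The 4 genes with the full element did not share a profile. Dusp1 was highest in antagomir replicate 3 (1416 CPM). Sst, the somatostatin gene in which the element was first studied, and Scg2, a neuropeptide precursor, were highest in vehicle replicate 1, with 12.7 and 10.4 CPM against at most 3.04 and 5.47 CPM in the other libraries. Areg, a ligand of the EGF receptor, did not exceed 1.62 CPM in any library.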

How the data were processed

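RNA of sorted cells was made into cDNA with the SMART-Seq v4 kit and sequenced as 100 bp paired-end reads, per the labels' protocols. Tools and build named in the submitters' processing notes are kallisto, sleuth and mm10, whose versions are not given in the sources used here. Per the file headers, each deposited table lists estimated counts, the fragments that kallisto gave to a transcript, and the deposited TPM values divide them by effective length. Reads that fit several transcripts are shared out by a model, so single transcripts of Crem or Crtc2 are less certain than gene sums.

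Transcripts were joined to GENCODE M21 (GRCm38) by identifier without version (98294 of 99567, 98.7%), summed per gene and rounded. The treatment group label and the titles, which agree on all 6 libraries, gave the groups, and the titles gave the replicate numbers. The treatment protocol in the labels names the antagomir injection for all 6 libraries, vehicle included. The fit used edgeR 4.0.16 under R 4.3.3 on all 6 libraries, with TMM factors, filterByExpr at a minimum count of 10, robust quasi-likelihood dispersions and a term for group. Adjusted p-values (Benjamini-Hochberg) were held to 0.05. Transcripts were fitted the same way. SEs are the log2 fold change over the root of F, and intervals use the fit's degrees of freedom. log2 CPM used a prior count of 2. Simulated counts were used to check the test. Alternatives were other scaling and filters, DESeq2 1.42.0, limma 3.58.1 (voom, and log2(TPM + 1)), each library left out, and a replicate block. The 3-count floor covers counting error only.

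Named genes were all members, transcripts with at least 10% of a member's counts, up to 4 genes of smallest p per pathway list, Sik1, Nr4a1, Fos and Per1, and the 5 highest and 3 lowest correlates of Creb1 above a mean of 10 CPM. Genes of lists with groups apart or with a full CRE were named after their values were seen where the rule did not take them. The same holds for genes singled out for their pattern over libraries (Adcy7, Pkia, Atf3, Sp8, Cd24a, Ppp1r1b, Nefl, Syt1, Slc17a7, Drd1). The members and lists were chosen with earlier results of these data known.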

Additional observations from a re-analysis of the deposited data

How the results depend on the processing

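Of the 8 genes, 0 passed the threshold under any of 14 alternatives. Creb1, Atf1, Crtc2, Crebbp and Ep300 kept their sign under all 14, though on the log2(TPM + 1) scale Ep300 moved from -0.37 to -0.077 and Crebbp from -0.19 to -0.37. Leaving out 1 library at a time, Creb1 ranged from 0.14 to 0.57, Crem from -0.34 to 0.20, Crtc1 from -0.14 to 0.50, Crtc3 from -0.32 to 0.098 and the members' median from -0.19 to 0.035. On the log2(TPM + 1) scale Crem turned to 0.032 and the median was -0.023. The count of called genes was 0 under 13 alternatives (495 to 1284 genes at an unadjusted p under 0.05) and 5 with DESeq2 (917 at that p), and of transcripts 0 under 8. The medians of the pathway lists with 1 library left out were computed after seeing the data. Shares of summed TPM moved 3 of the transcript comparisons beyond the spread (Crebbp-201, Crebbp-203 and Ep300-201), without changing their direction. The shares of Creb1-201 (from -1.29 to 3.04 percentage points), Crtc1-201 (from -0.89 to 2.49) and Crtc2-201 (from 2.68 to -0.14) changed sign within the spread. The cause of these changes was not tested.

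The labels do not say that same-numbered libraries belong together. Their deviations from the group means correlated at 0.19, 0.075 and 0.028. Vehicle replicates 1 and 2 each correlated best with the antagomir library of their number and vehicle replicate 3 with antagomir replicate 2 (0.14). With 3 libraries per group these correlations cannot settle whether the numbers mark pairs, and the main fit did not take them as pairs. With the replicate number as a block the fold change of Creb1 was 0.38 (unadjusted p = 0.0339, edgeR adjusted p = 0.558). In that fit 0 genes were called, the smallest edgeR adjusted p was 0.21, and 1284 genes had an unadjusted p under 0.05, beside 616 without the block. The common coefficient of variation between libraries was 36.2%, and the precision for each gene is given by its interval.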
